A study of Rattus norvegicus with 4 samples.

Results

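The comparison described here sets the serum exosome microRNAs (miRNAs) of rats with severe disease against those of rats with moderate disease, both sampled on day 49 after induction of hepatocellular carcinoma (HCC, the commonest primary liver cancer). It covers every rat miRNA that the scanner software called detected on at least 1 of both day 49 arrays, which was 181 of the 719 rat miRNAs on the array. Of these 181, 124 were detected on both arrays, 52 on the moderate array alone and 5 on the severe array alone.

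The series holds 4 arrays of male rats, 1 array for each of 4 groups: naive (not injected, day 0), light (day 35), moderate (day 49) and severe (day 49). The sample protocol states that an HCC cell line, which it does not name, was injected, whereas the design text speaks of a single dose of HCC exosomes given to "baffolo" rats. The design text also speaks of 4 experiments per time with different rats, so each array may hold RNA of 1 rat or of several. How severity was graded is not given in the sources used here. With 1 array a side there is no replicate check, so every difference below is one between 2 arrays, not between conditions, and no p-value is given. Errors are standard errors (SE) between repeated spots within an array, so they hold no spread between rats.

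miRNAs are short RNAs that guide Argonaute proteins to messenger RNAs, and the seed, bases 2 to 8 from the 5′ end, does most of the target recognition. A hairpin precursor yields 2 arms, named 5p and 3p, either of which can become the mature miRNA. Exosomes are small vesicles that cells release into body fluids. Those in serum carry miRNAs of blood cells, platelets, vessel walls, liver and, in animals with tumours, of tumour cells. In a pooled fluid such as serum, fewer vesicles of 1 cell type and less RNA per vesicle cannot be told apart.

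The mature sequences of the miRNAs on which the results turn are shown first, because the array measures them by hybridisation and because several of them differ from a family member by very few bases. They were taken from RefSeq (GRCr8), which held 163 of the 181, and are written 5′ to 3′ with the seed in capitals. The first set holds miRNAs whose scaled signal was higher on the severe array.
miR-652-5p: aCAACCCUaggagggggugccau
miR-188-5p: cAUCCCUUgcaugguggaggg
miR-144-5p: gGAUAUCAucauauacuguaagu
miR-144-3p: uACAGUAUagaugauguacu
miR-3593-3p: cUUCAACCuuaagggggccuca
miR-494-3p: uGAAACAUacacgggaaaccucu
miR-211-3p: gGCAAGGAcagcaaaggggg
miR-483-5p: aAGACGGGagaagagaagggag
miR-1249: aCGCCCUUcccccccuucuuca
miR-125a-3p: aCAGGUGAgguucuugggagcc
miR-1224: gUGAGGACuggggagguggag
miR-92b-3p: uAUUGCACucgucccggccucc
miR-675-3p: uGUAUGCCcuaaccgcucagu
miR-192-5p: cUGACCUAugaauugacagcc

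The second set holds miRNAs with lower scaled signal on the severe array.
miR-133b-3p: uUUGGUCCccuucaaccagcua
miR-1-3p: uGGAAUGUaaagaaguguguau
miR-143-3p: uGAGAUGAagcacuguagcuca
miR-326-3p: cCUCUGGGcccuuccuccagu
miR-223-3p: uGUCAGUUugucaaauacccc
miR-423-5p: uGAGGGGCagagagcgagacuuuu
miR-652-3p: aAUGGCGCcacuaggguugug
miR-103-3p: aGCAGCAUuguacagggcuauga
miR-215: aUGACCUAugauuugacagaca
miR-199a-3p: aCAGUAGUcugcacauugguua
let-7c-5p: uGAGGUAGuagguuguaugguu
miR-26a-5p: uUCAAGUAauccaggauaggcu

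The third set holds relatives that share a seed with a miRNA above and were within 2-fold between the arrays.
miR-107-3p: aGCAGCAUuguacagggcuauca
miR-92a-3p: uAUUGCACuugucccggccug
let-7f-5p: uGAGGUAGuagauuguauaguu

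The 2 day 49 arrays differed in total brightness before any scaling. The summed signal of detected miRNAs was 220104 intensity units for moderate and 96612 for severe, a severe over moderate ratio of 0.439. Labelling spike-ins, control RNAs of the assay, had severe over moderate ratios of 0.787 and 0.576. The severe array also had more spots marked as outliers, 525 of 14380 against 386. For each miRNA the summed probe signals were therefore expressed relative to a scale of the array itself, the 75th percentile of the 111 miRNAs that all 4 arrays detected (954 intensity units for moderate, 415 for severe), as log2. Where 4 values are listed "from naive to severe", they follow the order naive, light, moderate, severe. On this scale 0 is the array's 75th percentile, and values of 1 miRNA can be compared between arrays, but not values of different miRNAs. To count as measured, a detected miRNA also had to reach a floor: the signal of the dimmest probe whose spots stood well above background (13.1 intensity units for moderate, 16.01 for severe).

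Of the 181 miRNAs, 115 were measured on both arrays, 50 on the moderate array alone, 4 on the severe array alone and 12 on neither. Among the 115, 26 (22.6%) had a scaled signal on the severe array that was higher by 2-fold or more, in 23 (20.0%) it was lower by as much, and 66 were within 2-fold. When miRNAs measured on 1 array entered as lower bounds, 30 of 137 (21.9%) were higher and 30 of 137 (21.9%) lower. Such a bound can set a sum of probes against the floor of 1 probe. A fold given below for a miRNA measured on 1 array is therefore not a strict minimum. The 137 leave out miRNAs that have neither a difference nor a bound. List counts below are over members of the 181 and include such miRNAs, which could not be called, so the 2 shares have unlike bases. The median difference over the 115 was -0.41 on the log2 scale (quartiles -0.89 and 0.80), so that differences of lists below are read against -0.41 rather than 0. Differences ran from -4.97 to 3.48, and 16 miRNAs were 4-fold or more higher and 3 were lower by as much. The scaled levels of the 115 correlated between both arrays at r = 0.82 and rho = 0.77, a description across miRNAs, which are not independent replicates.

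**Figure D1:**
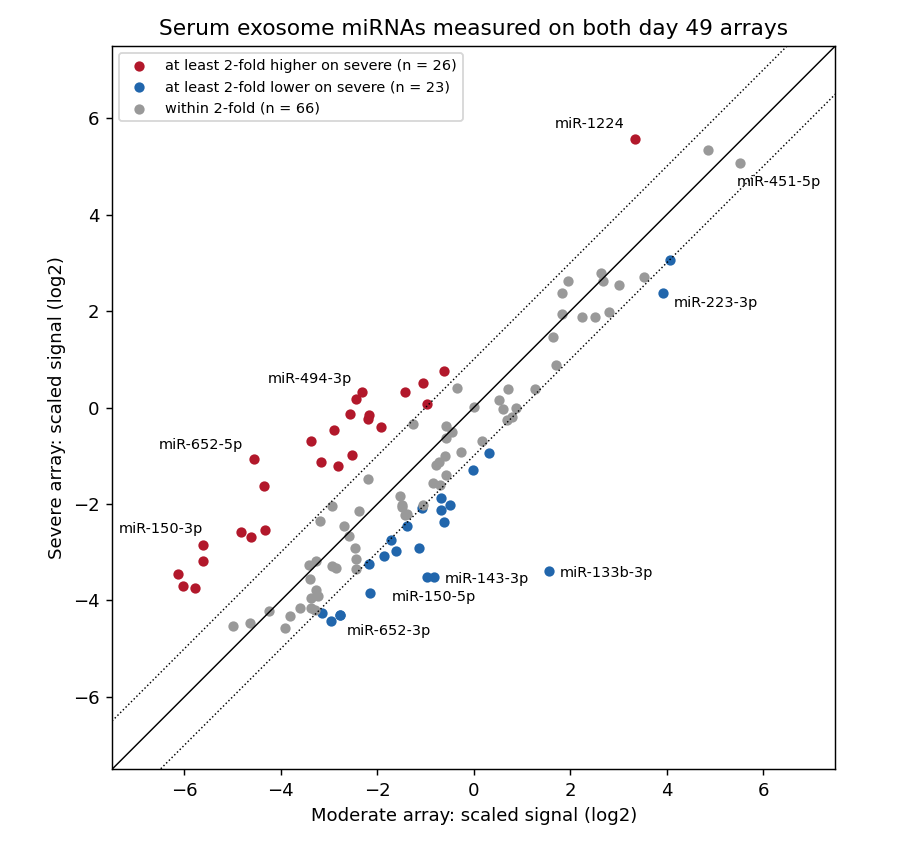
Scaled signal (log2) of the 115 miRNAs measured on both day 49 arrays, with the moderate array on the x axis and the severe array on the y axis; the solid line marks equality and the dotted lines 2-fold differences. The 26 miRNAs in red lie above the upper dotted line, mostly at low to middle levels on the moderate array, and miR-133b-3p lies farthest below the lower one.

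The split between higher and lower depends on the scaling. With no scaling, 17 miRNAs were higher and 102 lower, and with the spike-ins as the scale, 24 and 72. With the 75th percentile over miRNAs detected on both day 49 arrays the counts were 29 and 49. The split went the other way with median scaling (32 and 21), quantile normalization (34 and 21) and centring on the median difference (36 and 15). Another background correction, normexp with an offset, left 30 higher and 8 lower and moved the median difference from -0.41 to 0.16. The offset adds the same constant to the signals of both arrays. This setting also starts from the median signals of spot and background, so several steps changed together. The part of the offset in the result was not tested. These counts therefore cannot tell whether the higher side holds better than the lower side. No call turned into the opposite call under any of these settings.

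Few miRNAs made up most of the signal on both arrays, and their order differed. The 5 brightest held 51.4% of the moderate array's summed signal and 59.0% of the severe array's. miR-1224, a mirtron (a miRNA made from a spliced intron), took 4.43% of the signal at moderate and 20.5% at severe disease, moving from rank 6 to rank 1. These ranks order array signals, which differ with each probe's response, and not amounts of RNA. Its scaled level was 3.84 on the naive, 4.12 on the light, 3.35 on the moderate and 5.58 on the severe array. The severe array thus stood above the other 3, at 4.67-fold the moderate level (log2 difference 2.22 ± 0.017 SE over spots).

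miR-451-5p, the leading miRNA of red cells, went from 19.9% of the signal to 14.5% and was within 2-fold after scaling (-0.44). The share of miR-3584-5p went from 12.5% to 17.3%, also within 2-fold after scaling (0.48). miR-3473 fell from 7.31% to 3.60% of the signal, just past the 2-fold line at -1.01. miR-223-3p, the leading miRNA of neutrophils and monocytes, dropped from rank 4 with 6.60% to rank 10 with 2.24%. Its scaled level was 3.29, 3.78, 3.93 and 2.38 from naive to severe, so the severe array was the lowest of the 4 and 2.92-fold below the moderate one. miR-16-5p (-0.84) and miR-92a-3p (0.14), both abundant in blood cells, were within 2-fold. Without scaling, miR-3584-5p (-0.72) and miR-92a-3p (-1.06) took the other sign.

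The miRNA with the largest higher value on the severe array was miR-652-5p. Its signal was 40.7 ± 1.13 intensity units on the moderate and 197 ± 2.85 on the severe array, and its scaled level -4.34, -4.52, -4.55 and -1.07 from naive to severe. The naive, light and moderate arrays lay close together and the severe array was 11.1-fold above the moderate one (3.48 ± 0.045). miR-188-5p was at -4.47 on the naive, -4.34 on the moderate and -1.62 on the severe array and was not detected on the light array, a difference of 2.72 ± 0.055. It lies in a cluster of miRNA genes on the X chromosome whose other members did not share this difference, as described further on.

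miR-494-3p, from the imprinted Dlk1-Dio3 region, had scaled levels of -2.47, -1.96, -2.31 and 0.32 from naive to severe, a severe minus moderate difference of 2.62 ± 0.014. miR-483-5p, which lies in an intron of the growth factor gene Igf2, had levels of -2.97, -2.73, -2.58 and -0.14, a difference of 2.44 ± 0.028. In both cases the severe array was the highest of the 4. The 4 probes of miR-483-5p gave differences from 1.99 to 3.03, the only range over 1 among the 76 miRNAs with at least 2 usable probes, whose median range was 0.07.

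miR-211-3p was at -2.28, -1.50, -2.44 and 0.17 from naive to severe (2.61 ± 0.026). miR-3593-3p was at -2.77, -2.67, -3.37 and -0.69 (2.67 ± 0.018), and miR-125a-3p at -2.63, -2.79, -2.89 and -0.47 (2.42 ± 0.032). Each had its highest level on the severe array and its lowest on the moderate array, so part of the day 49 difference lies on the moderate side. miR-150-3p, miR-144-5p and miR-1249 were detected on the day 49 arrays alone among the 4, at 19.5, 13.5 and 19.5 intensity units on the moderate and 57.3, 38.2 and 45.8 on the severe array. Their moderate signals lie near the floor of 13.1, so their differences (2.76 ± 0.074, 2.70 ± 0.11 and 2.43 ± 0.076) rest on dim spots. All 10 kept their call in every alternative setting that gave them a value.

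The other 16 miRNAs with higher scaled signal lay between 1.04 and 2.34, with a median of 1.87. They include miR-296-5p (2.34), miR-290 (2.24), miR-139-3p (1.80), miR-130b-3p (1.75) and miR-877 (1.53), a further mirtron. On the moderate array miR-296-5p had 14.6 intensity units, near the floor of 13.1, with 0 of 20 spots well above background. Its difference was 1.59 with the scanner's total signal. At the edge of the threshold stood miR-327 with 1.04. Of the 26 higher miRNAs, 18 were measured on all 4 arrays, and the severe array was the highest in all 18, while the moderate array was the lowest in 7. Over all 104 miRNAs measured on the 4 arrays, the severe array was the highest in 31 and the moderate array the lowest in 11. The 18 were picked for a severe level above the moderate one, so their counts partly follow from that choice.

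**Figure D2:**
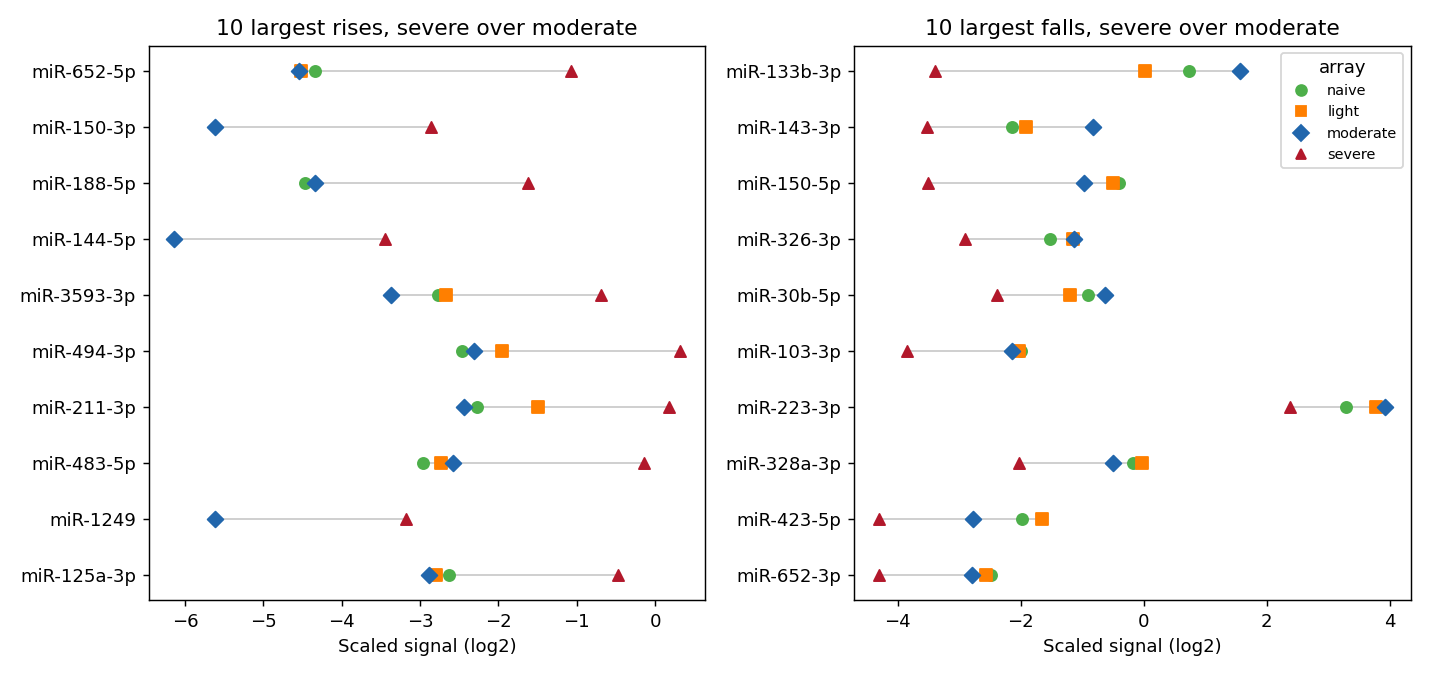
Scaled signal (log2, x axis) of the 10 miRNAs with the largest rise and the 10 with the largest fall from the moderate to the severe array, with 1 point per array for naive, light, moderate and severe; arrays on which a miRNA was not measured have no point. In the left panel the naive, light and moderate points lie together and the severe point to their right, and in the right panel the severe point lies to the left of the others, farthest for miR-133b-3p.

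The lower side was led by muscle miRNAs. miR-133b-3p, which is made in skeletal muscle and heart, had 2830 ± 9.46 intensity units on the moderate and 39.4 ± 1.40 on the severe array. Its scaled level was 0.74, 0.03, 1.57 and -3.40 from naive to severe, so that the moderate array was the highest and the severe array the lowest. The difference was -4.97 ± 0.051, or 31.3-fold lower. Both of its probes showed this: they gave 492 and 2337 intensity units on the moderate array and 4.08 and 35.3 on the severe array.

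miR-1-3p, which acts beside the miR-133 family in muscle, had 130, 57.2, 539 and 2.28 intensity units from naive to severe. It was not measured on the severe array, and its bound makes it at least 14.7-fold lower there, a log2 value of -3.87. The size of the bound depends on the setting, and its weakest log2 value was -1.41. miR-133a-3p (43.9 intensity units), miR-206-3p (18.2) and miR-499-5p (33.0), the last from a myosin gene, were measured on the moderate array alone, with no bound past 2-fold. The muscle list as a whole went from 1.57% of the summed signal on the moderate array to 0.0407% on the severe array. Of its 7 miRNAs on the array, 5 were among the 181, of which miR-206-3p and miR-499-5p had no bound and could not be called. At least 2-fold lower were 2 of the 5, and 0 were higher, against 21.9% lower over all 137. Both calls were kept in every setting at the 2-fold threshold.

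Among markers of vessel wall and connective tissue the members did not move together. miR-143-3p, a smooth muscle miRNA, had scaled levels of -2.14, -1.91, -0.83 and -3.52 from naive to severe, a difference of -2.69 ± 0.026. miR-199a-3p, a fibroblast miRNA, had 194 intensity units on the moderate array and was not measured on the severe array (at least 5.26-fold lower). miR-125b-5p was at least 2.10-fold lower, and miR-214-3p (-1.46) and miR-10b-5p (-1.11) were also lower.

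In the same list miR-99a-5p (2.03 ± 0.022) and miR-10a-5p (1.53 ± 0.022) were higher on the severe array. The close relatives miR-10a-5p and miR-10b-5p thus stood on opposite sides, at scaled levels of -2.51 and -3.15 on the moderate and -0.98 and -4.26 on the severe array. The call of miR-10b-5p was lost in 8 settings, median scaling and the brightest probe among them, and its sign turned with normexp (0.25); that of miR-10a-5p was lost without scaling (0.33) and with the spike-ins. Only 1 of the 2 probes of miR-10b-5p was well above background on both arrays. The list's median over its 5 members measured on both arrays was -1.11, against -0.41 for all 115; it stayed below 0 under every scaling and turned to 1.55 with the scanner's total signal, 0.41 with the brightest probe and 0.19 with normexp. Its share of the signal was 0.603% on the moderate and 0.510% on the severe array.

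Among lymphocyte miRNAs, 3 were lower on the severe array. miR-150-5p, a marker of mature lymphocytes, had scaled levels of -0.41, -0.50, -0.97 and -3.51 from naive to severe, a difference of -2.54 ± 0.054. miR-342-3p was at -0.80, -0.59, -0.68 and -2.13 (-1.45 ± 0.037), and miR-181c-5p was at least 2.33-fold lower. In all 3 the severe array was the lowest or below the floor, while the other arrays differed little. Of the 6 lymphocyte miRNAs among the 181, 3 were at least 2-fold lower and 0 higher, against 21.9% lower over all 137. The list holds only the 5p arm of miR-150. The 3p arm, with 19.5 intensity units on the moderate array, was higher on the severe array (2.76). The call of miR-181c-5p was lost in 6 of 12 settings, and those of miR-150-5p and miR-342-3p with normexp. The list's median was -1.45 over 3 measured on both arrays, and its share of the signal went from 0.599% to 0.164%.

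Of the 5 myeloid and pan-leukocyte miRNAs, only miR-223-3p was past 2-fold, against 21.9% lower over all 137. miR-146a-5p, which dampens Toll-like receptor signalling, was just outside the threshold at -0.96, and miR-142-5p lay at -0.80. miR-142-3p, the other arm of the same pan-leukocyte precursor, lay at 0.91, or at -0.29 without scaling. The list's share of the signal went from 7.18% to 2.78%.

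Red cell miRNAs lay mostly on the higher side by count, but not by share of the signal. miR-144-3p had scaled levels of -1.98, -0.61, -2.17 and -0.16 from naive to severe, so that the severe array was the highest and 4.02-fold above the moderate one. miR-183-5p was measured on the severe array alone (30.5 intensity units; at least 5.36-fold higher), in 10 of its 20 spots well above background. Of the 4 members of the red cell list among the 181, 3 were higher and 0 lower, against 21.9% higher over all 137. Of these 3, 2 are the arms of 1 precursor, miR-144. The median of 2.01, against -0.41 for the 115, is over 3 values, both arms among them. miR-144-5p had 13.5 intensity units on the moderate array, near the floor of 13.1, with 4 of 20 spots well above background. miR-183-5p is a member only through the severe array, and the call of miR-144-3p was lost without scaling (0.81). miR-451-5p, which held most of the list's signal, was within 2-fold, and the list's share of the signal went from 20.0% to 15.0%. miR-96-5p and miR-182, also in that list, were not detected on either array.

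Of 5 detected platelet and endothelial miRNAs, 0 were called in either direction, against 21.9% each way over all 137. Only 2 of the 5 were measured on both arrays, and 3 on the moderate array alone. Of the latter, miR-126a-5p had no bound and could not be called, and the bounds of miR-191a-5p (-0.09) and miR-221-3p (-0.82) fell short of 2-fold. With so few members, the 0 calls cannot tell whether these miRNAs differed. miR-126a-3p, which marks endothelial cells and platelets, lay at -0.90 and miR-22-3p at -0.38.

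The liver markers were split. miR-122-5p, the main miRNA of hepatocytes, had 964 intensity units on the moderate and 417 on the severe array. Its scaled levels of 0.75, -1.43, 0.02 and 0.01 from naive to severe differ little between the day 49 arrays (-0.0074 ± 0.027; from -1.21 to 0.40 across the scalings), with the light array the lowest. miR-192-5p, abundant in liver and gut, was at -1.05, -1.24, -1.04 and 0.50 (1.54 ± 0.014), so that only the severe array stood apart. miR-193-3p was also higher (1.95 ± 0.044). miR-215, which shares the seed of miR-192-5p, went the other way: it had 216 intensity units on the moderate and 14.6, below the floor, on the severe array, which makes it at least 5.88-fold lower. The call of miR-192-5p was lost without scaling (0.34) and with the spike-ins, that of miR-193-3p without scaling (0.75) and that of miR-215 with normexp (-0.35). The mature miR-192-5p and miR-215 differ outside the seed by C1A, A12U and C20A (positions from the 5′ end, base of miR-192-5p first). They also differ in length (21 against 22 bases).

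**Figure D3:**
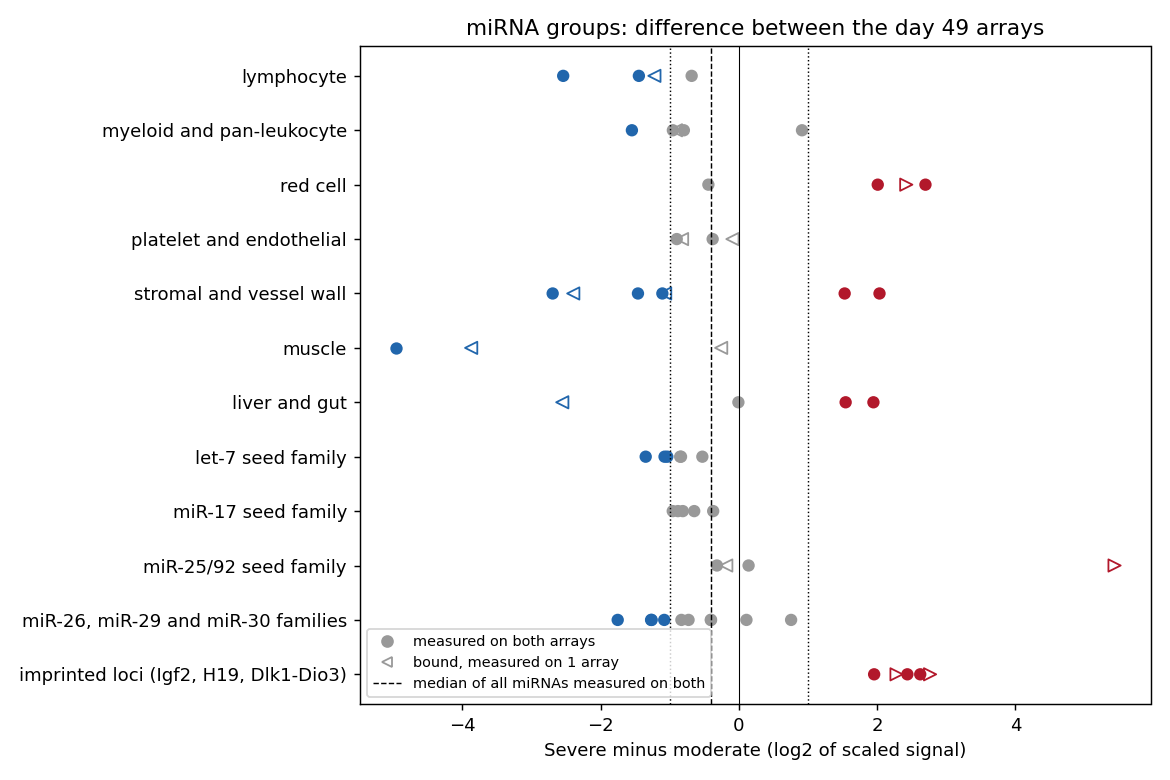
Severe minus moderate difference (log2 of scaled signal, x axis) of each member of 12 miRNA lists (y axis), with filled circles for miRNAs measured on both arrays and open triangles for bounds; red and blue mark at least 2-fold higher and lower, the dotted lines 2-fold and the dashed line the median of all 115, -0.41. Muscle and lymphocyte members lie to the left, the imprinted loci to the right, and the stromal and liver lists have members on both sides.

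miRNAs of imprinted loci, which are expressed from 1 parental allele and mainly during fetal growth, stood on the higher side. Of 17 on the array, 6 were among the 181, and 5 of these were at least 2-fold higher and 0 lower, against 21.9% higher over all 137. The severe array alone brought 2 of the 5, miR-675-3p and miR-134-5p, into the 181, so the count is not independent of the choice of members. Besides miR-494-3p and miR-483-5p, miR-370-3p had scaled levels of -2.18, -2.33, -2.18 and -0.23 from naive to severe (1.96 ± 0.015), a call lost without scaling (0.76). miR-675-3p, made from the H19 transcript, and miR-134-5p, a neighbour of miR-494-3p, were measured on the severe array alone, at 38.7 and 27.6 intensity units. They were at least 6.80-fold and at least 4.86-fold higher, in 10 and 5 of 20 spots well above background. The list's share of the signal went from 0.262% to 1.36%. Its median of 2.44 is over only the 3 members measured on both arrays and equals the value of miR-483-5p. This median stayed above 1 under every alternative. The sixth member, miR-483-3p, was measured on the moderate array alone, at 14.0 intensity units, and has no bound.

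miR-92b-3p, the miRNA that the title of the series names, was detected on the severe array alone of the 4. Its summed signal was -30.4, -23.2, -24.6 and 246 intensity units from naive to severe, values below 0 being background-subtracted sums. Severe over moderate, it was at least 43.3-fold higher (log2 5.43). That bound sets a sum of 4 probes against the floor of 1 probe, and its size depends on the setting: the log2 value was 3.94 with the scanner's total signal and 2.02 at its lowest, with normexp, always past 2-fold. Its signal came from 2 of 4 probes, which gave 223 and 29.8 intensity units, whereas the other two gave -5.27 and -1.25. The relative miR-92a-3p has the same seed and differs by U10C and G21C (base of miR-92a-3p first) and in length (21 against 22 bases). miR-92a-3p was at 2.67, 2.70, 2.65 and 2.79 from naive to severe. It was therefore level across all 4 while miR-92b-3p appeared on 1. The other members of the seed family, miR-25-3p (-0.32) and miR-363-3p (measured on the moderate array alone), had no call.

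The lists of miRNAs that the literature describes as raised or lowered in liver cancer gave a mixed result. In the raised list, 3 of 7 members were higher (miR-92b-3p, miR-183-5p and miR-130b-3p) and 1 was lower, miR-18a-5p (-1.21), against 21.9% in each direction over all 137. miR-92b-3p and miR-183-5p are members only through the severe array, miR-130b-3p lost its call without scaling (0.55) and miR-18a-5p in 5 settings. miR-21-5p, raised in many tumours, lay at 0.67 and went from 1.67% to 2.64% of the signal, and miR-210-3p, induced by hypoxia, lay at -0.31. The list's median of 0.18 turned below 0 under 4 settings, among them no scaling (-1.02) and the spike-ins (-0.45), and miR-21-5p lay at -0.53 without scaling. In the lowered list, 5 of 10 members were lower and 0 higher: miR-223-3p, miR-214-3p, miR-26a-5p, miR-199a-3p and miR-125b-5p, against 21.9% lower over all 137. Of these, miR-223-3p kept its call in every setting at the 2-fold threshold; miR-199a-3p lost it with normexp, miR-26a-5p in 3 settings, miR-125b-5p in 7 and miR-214-3p in 3 besides its change of sign with normexp. The list's median was -0.52 against -0.41 for all 115. Both lists share members with the lists above, so they are not separate evidence.

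In 3 of the 7 precursors whose 2 arms were both measured on both arrays, the arms lay past 2-fold on opposite sides. Over all 115 miRNAs measured on both arrays, 22.6% were higher and 20.0% lower by 2-fold or more. For miR-652 the 5p arm was at 3.48 and the 3p arm at -1.52 ± 0.073. The 3p arm had 139 intensity units on the moderate and 21.1 on the severe array. For miR-150 the 5p arm was at -2.54 and the 3p arm at 2.76, with signals of 486 and 19.5 intensity units on the moderate and 36.3 and 57.3 on the severe array. For miR-328a the 5p arm was at 1.61 ± 0.027 and the 3p arm at -1.53 ± 0.020.

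The opposite arms of miR-328a were each seen by 2 probes: 1.91 and 1.42 for the 5p arm, and -1.69 and -1.46 for the 3p arm. The 3p arms of miR-652 and miR-328a and the 5p arm of miR-150 lost their call with normexp, where miR-652-3p came to 0.079, and miR-328a-5p lost its call without scaling (0.41) and with the spike-ins. The call of miR-652-3p was also lost with the floor times the number of probes, and only 1 of its 2 probes was well above background on both arrays. On the moderate array miR-150-3p had 4 of 20 spots well above background. Of the other precursors, miR-144 had both arms higher (2.70 and 2.01), and miR-142 had arms at -0.80 and 0.91. Both arms lay below 0 in miR-140 (-0.89 and -0.98) and let-7d (-1.04 and -0.64).

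**Figure D4:**
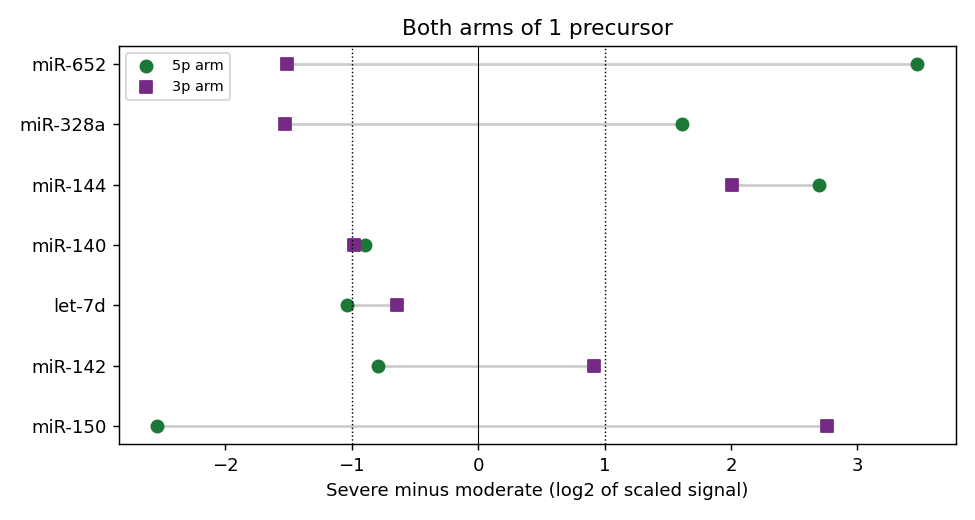
Severe minus moderate difference (log2 of scaled signal, x axis) of the 5p arm (circles) and 3p arm (squares) of the 7 precursors with both arms measured on both arrays; dotted lines mark 2-fold. miR-652, miR-328a and miR-150 have 1 arm beyond each dotted line, and miR-144 has both arms beyond the right one.

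Relatives with a common seed were compared next. The 163 members with a sequence held 125 seeds, of which 20 were shared by at least 2 members. In the 13 shared seeds with at least 2 members measured on both arrays, 0 had members past 2-fold in both directions (miR-192-5p and miR-215 do only through a bound), and the median range within a seed was 0.46. These relatives can share hybridisation as well as a seed, so their probes are not independent.

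The let-7 family, which restrains growth genes such as Ras, had 6 members measured on both arrays, and all lay below 0, from -1.35 to -0.53. Of all 115 miRNAs measured on both arrays, 71 lay below 0, and their median was -0.41 over the 115. let-7c-5p (-1.35), let-7b-5p (-1.08) and let-7d-5p (-1.04) were past 2-fold, the last pair just inside it, and these calls were lost in 3, 6 and 7 settings. The family's median of -0.94 stayed below 0 under every alternative, and let-7c-5p and let-7f-5p, the ends of the range, differ by G12A and G19A (base of let-7c-5p first). miR-26a-5p and miR-26b-5p, which target the methyltransferase Ezh2, were at -1.26 and -1.27. They differ by C11U and C21U (base of miR-26a-5p first) and in length (22 against 21 bases). In the miR-30 family miR-30b-5p had scaled levels of -0.90, -1.20, -0.62 and -2.38 from naive to severe (-1.75 ± 0.029), and miR-30c-5p lay at -1.08. The 3 miR-29 miRNAs, which target collagens, were within 2-fold, from -0.40 to 0.76.

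The 5 members of the miR-17 seed family, which promote proliferation, lay between -0.96 and -0.37, all within 2-fold, with a median of -0.81. miR-18a-5p, from the same gene cluster, was lower at -1.21 and miR-92a-3p, also from it, lay at 0.14. Of the 6 detected miR-23, miR-24 and miR-27 miRNAs, 0 were called, against 21.9% each way over all 137. Of these 6, 5 were measured on both arrays, and miR-24-2-5p, on the moderate array alone, had a bound short of 2-fold (-0.74). Their median of -0.05 turned above 0 under 4 settings, as did that of the miR-25/92 family under 5.

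The widest range within a seed was in miR-103-3p and miR-107-3p, which differ by the single change G22C (base of miR-103-3p first) and lie in introns of pantothenate kinase genes. miR-103-3p was at -2.0, -2.03, -2.15 and -3.85 from naive to severe (-1.70 ± 0.077), the severe array standing below the rest. miR-107-3p lay at -0.07 ± 0.027. On the severe array 10 of the 20 spots of miR-103-3p were well above background, and its call was lost with normexp.

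Neighbouring miRNA genes, taken as hairpins within 10 kb on 1 strand in the RefSeq table, were compared where at least 2 were measured on both arrays. In the gene pair of miR-144 and miR-451, which red cell precursors transcribe together, the arms of miR-144 lay at 2.01 and 2.70 and miR-451-5p at -0.44, a range of 3.14. Beside miR-188-5p (2.72), the neighbours miR-362-3p (0.17) and miR-500-3p (0.23) were within 2-fold, and miR-532-5p was measured on the moderate array alone. The 6 miRNAs of the miR-17-92 cluster spanned -1.21 to 0.14.

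Of the remaining large falls, miR-326-3p was at -1.53, -1.15, -1.13 and -2.91 from naive to severe (-1.77 ± 0.046). miR-423-5p was at -1.97, -1.65, -2.77 and -4.30 (-1.53 ± 0.065), so that its moderate level already lay below those of the naive and light arrays. Only 1 of its 2 probes was well above background on both arrays, and that probe gave -0.85, within 2-fold. The call of miR-423-5p was lost with the brightest probe and with the floor times the number of probes, and its sign turned with normexp (0.059). Among the 23 lower miRNAs, all were measured on the 4 arrays, and the severe array was the lowest in 22 while the moderate array was the highest in 9. Over all 104 miRNAs measured on the 4 arrays, the severe array was the lowest in 53 and the moderate array the highest in 27. The 23 were picked for a severe level below the moderate one, so their counts partly follow from that choice. Just outside the threshold were miR-140-3p (-0.98) and miR-17-5p (-0.96), and just inside it miR-185-5p (-1.01).

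The 50 miRNAs measured on the moderate array alone had signals from 13.6 to 539 intensity units there, with a median of 31.6. Only a signal above 36.8 on the moderate array would have reached the severe array's floor at an equal scaled level. Of the 50, 32 lay below that (up to 35.1) and have no bound, 18 have a bound, and 7 bounds were past 2-fold. For those 32, a difference was not detectable at this brightness, and their absence from the severe array says nothing of their level. Besides miR-1-3p, miR-215, miR-199a-3p, miR-181c-5p and miR-125b-5p, the bounds past 2-fold belonged to miR-345-5p (at least 2.17-fold lower) and miR-324-5p (at least 2.15-fold lower). The smaller bounds depended on the setting: the calls of miR-345-5p, miR-324-5p and miR-125b-5p were lost in 7 settings each and that of miR-181c-5p in 6, and miR-345-5p changed sign with normexp (0.39). With the scanner's total signal miR-345-5p came to -0.58 and miR-324-5p to -0.57.

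Base composition moved with the higher side. The 21 higher miRNAs measured on both arrays that had a sequence held a median of 60.9% G and C, against 46.6% in the 20 lower and 45.5% in the 61 within 2-fold. At least 60% G and C was found in 11 of the 21, 2 of the 20 and 4 of the 61. Across 102 miRNAs the difference correlated with G and C content at r = 0.28 and rho = 0.18, and the light minus naive difference at r = -0.16. Both arms of miR-144, with 30.4% and 30.0%, were higher with little G and C, so the composition does not hold for each of them. Hybridisation strength depends on base composition, and its part in the differences was not tested. The higher calls were also fewer among bright miRNAs: of the dimmest 38, middle 38 and brightest 39 by mean level, 10, 11 and 5 were higher and 6, 13 and 4 lower.

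**Figure D5:**
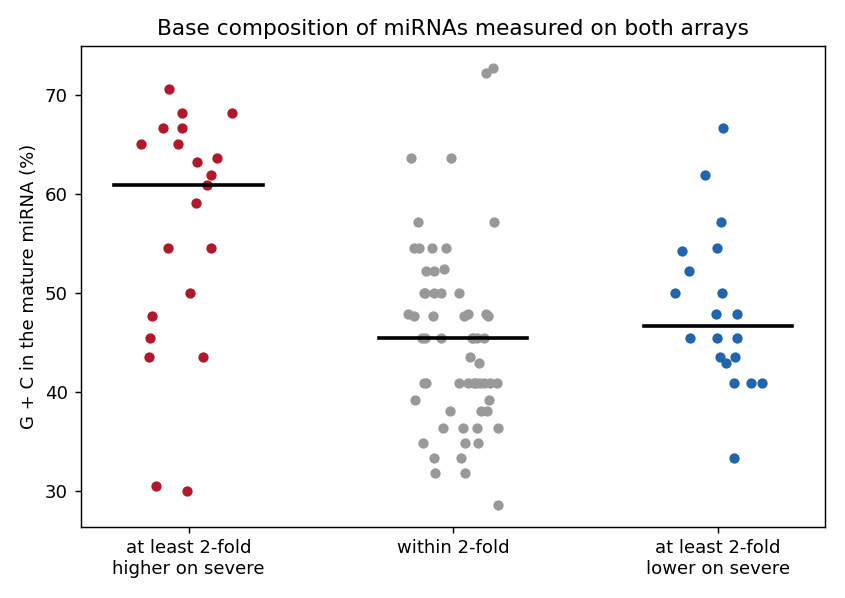
Percent G and C in the mature sequence (y axis) of miRNAs higher on the severe array by 2-fold or more (n = 21), within 2-fold (n = 61) and at least 2-fold lower (n = 20), with 1 point per miRNA measured on both arrays and the bar at the median. The medians are 60.9%, 45.5% and 46.6%, and points of all 3 groups overlap.

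Agreement between probes of 1 miRNA gives the precision within an array. Of 44 called miRNAs with a usable probe, 27 had at least 2 such probes. In these 27 every probe pointed in the direction of the call, and in 25 every probe was past 2-fold. The call comes from the sum of these same probes, so the agreement in direction partly follows from it. Called miRNAs with fewer usable probes are outside this check, among them miR-652-5p, miR-150-3p, miR-133b-3p and miR-143-3p. The median SE of the differences over spots was 0.03, with a highest value of 0.23. The 12 miRNAs measured on neither array, such as miR-22-5p and miR-883-5p, were called detected on at least 1 array but had summed signals below the floor.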

How the data were processed

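Cy3-labelled RNA of serum exosomes was measured on 4 Agilent 1-colour rat miRNA arrays of design 046066, which lay on 1 slide with 1 scan time, per the file headers. The labels' labelling protocol describes cRNA amplification, a procedure for messenger RNA, which was not resolved. The deposited intensity values per spot came from Agilent Feature Extraction 10.7.3.1, background-subtracted and not scaled between arrays, per the file headers; the submitters' processing notes name version 9.1. The deposited detection calls (0 or 1) and spot flags were used as given. The deposited value table holds the same intensity totals for 102 of the miRNAs (medians 304 on the moderate and 114 on the severe array, unscaled).

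Groups came from the sample titles. Outlier spots were left out (0 spots were saturated), spots were averaged per probe and probes summed per miRNA. Each array's sums were scaled by their 75th percentile over 111 miRNAs and put on the log2 scale. A probe set the floor if at least 0.5 of its spots were well above background. A miRNA measured on 1 array gave a bound, taken against its own signal on the other array or the floor, whichever was higher; the floor is that of a single probe, so the bound is not strict. The threshold was 2-fold, on the log2 scale of the deposited intensity.

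The named miRNAs are up to 10 largest rises and 10 largest falls with the same sign in the scanner's total signal, up to 8 measured on each array alone, both arms of a precursor, miR-92b-3p, the 5 brightest, and members of 18 lists. Lists were matched by the array's exact names, and 117 of 119 entries were on the array; miR-155-5p and miR-486 had no match. The members and lists were chosen with earlier results of these data known. Coordinates of the array's rn4 annotation were not used; sequences and neighbouring genes came from RefSeq GRCr8. Scripts ran in Python 3.11.15 (numpy 2.4.6, pandas 2.3.3), with limma 3.58.1 for normexp with an offset of 50, and were tested on simulated data. Alternatives covered scaling, background, probes, detection, floor, outlier spots and the fold threshold.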

Additional observations from a re-analysis of the deposited data

How the results depend on the processing

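Against 30 higher, 30 lower and a median difference of -0.41, the counts and medians depended on scaling and background as follows. No scaling gave 17 higher, 102 lower and a median of -1.61. The labelling spike-ins gave 72 lower and a median of -1.04, and the 75th percentile over miRNAs detected on both day 49 arrays 49 lower and -0.67. Median scaling moved the median to -0.27 and quantile normalization to -0.069. Normexp gave 8 lower and a median of 0.16, the brightest probe 18 lower, detection by spots well above background 16 lower and -0.10, the lowest summed signal as floor 61 lower, and a 3-fold threshold 9 lower. Of the settings chosen after seeing the data, centring on the median difference gave 15 lower and a median of 0 by construction, and 15 were lower, with a median of -0.10, in the deposited value table; the third, the floor times the number of probes, gave 26 higher and 22 lower. The count of higher miRNAs lay within 1.5 times of 30 in all settings with a 2-fold threshold but no scaling. Under normexp, 5 lower calls changed sign: miR-423-5p (0.059), miR-652-3p (0.079), miR-345-5p (0.39), miR-214-3p (0.13) and miR-10b-5p (0.25). The median of the stromal list, -1.11, became 1.55 with the scanner's total signal, 0.41 with the brightest probe, 0.19 with normexp, 0.52 with detection by spots well above background, 1.53 with the floor times the number of probes and 1.84 with the deposited value table, settings that measured other members on both arrays. The median of the liver list, 1.54, became -0.0074 with the lowest summed signal as floor. Except where stated, the cause was not tested. Of 51 named miRNAs with a call, 19 kept it in every setting that gave them a value, and 24 lost it in a setting other than normexp. No paired analysis was possible because each group had 1 array. Signal near background limits the lower side: 32 miRNAs of the moderate array were too dim for a bound.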
